A study of Mus musculus with 21 samples.

Results

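The Kruppel-like factors (KLFs) are transcription factors that bind GC-rich and CACCC sequences through zinc fingers at the C-terminal end of the protein. Some members mainly activate transcription, while others recruit corepressors such as CtBP or SIN3A. In mouse embryonic stem cells (ESCs), *Klf2*, *Klf4* and *Klf5* help maintain self-renewal and the naive state, and *Klf4* is a target of LIF and STAT3 signalling. DDX6 is an RNA helicase of P-bodies that binds the CCR4-NOT deadenylase and the decapping machinery.

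The data describe 9 *Klf* genes, *Klf2*, *Klf3*, *Klf4*, *Klf5*, *Klf6*, *Klf9*, *Klf10*, *Klf13* and *Klf16*, out of 14518 genes tested. They were matched by symbol to the Ensembl identifiers of the count tables, and all 9 passed the filter on low counts, with at least 122 counts in every library. They were chosen by hand from the family with earlier results of these data known (the changes in nascent RNA, total RNA and their ratio), no cutoff on a measured value is given for them, and they are not the whole family. A further 8 *Klf* genes are in the tables, 6 of which passed the filter, and their values are given below. *Klf6* was selected on its measured values for a comparison with *Klf2*, *Klf4* and *Klf5*. Its changes are therefore described without a test. The p values of the other members describe single genes and are no evidence about the family.

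The cells were V6.5 mouse ESCs grown in serum, LIF and 2i, a pair of inhibitors of MEK and GSK3. There were 3 cultures of wild-type (WT) cells and 4 cultures of *Ddx6* KO cells, 2 of each of 2 clones made with Cas9 and a guide RNA to exon 7 of *Ddx6*. Each culture was labelled with 500 µM 4-thiouridine (4sU) for 30 min and its RNA was split, so that newly made (nascent) RNA pulled down through 4sU and total RNA came from the same cells. Total RNA measures mRNA level, and the ratio of total to nascent RNA is used as a relative measure of mRNA stability. Each KO clone is 1 line, so the p values cover the spread between these cultures and not that between many independent clones.

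Summed counts ranged from 2441639 to 3570192 in the 4sU libraries and from 5724179 to 7369651 in total RNA. Levels are given as CPM, the counts of a gene scaled to the library total, with TMM factors applied to the totals, and changes are the log2 fold changes of *Ddx6* KO over WT from edgeR. *Ddx6* itself lay between 334 and 392 CPM in WT total RNA and between 21.5 and 67.8 CPM in KO. The 8 ESC markers examined were all detected, and their summed level in total RNA was 4915 to 5059 CPM in WT and 4929 to 5109 CPM in KO. Within this sum, 4 rose and 2 fell, including *Tbx3* (0.65), *Nanog* (0.59), *Tfcp2l1* (-0.51) and *Dppa5a* (-0.85, log2 change in total RNA). Among all tested genes, 19.5% rose and 31% fell in total RNA. Of 8 fibroblast markers, 3 passed the filter. Of these, *Thy1* (1.47) and *Col1a1* (0.97) rose and *Pdgfrb* (-0.94) fell, all at means under 10 CPM, while *Lum*, *Postn* and *Dcn* were at or near 0. The fibroblast sum was 12.2 to 15.9 CPM in WT and 15.9 to 17.6 CPM in KO. The sum of 5 primed and mesoderm markers was 19.9 to 23.6 CPM in WT and 6.96 to 9.87 CPM in KO. Of the 3 that were tested, *Otx2* (-2.53) and *Pou3f1* (-0.62) fell and *Mixl1* was not called. In WT against KO, the sums were 8.70 to 14.5 against 11.8 to 18.3 CPM for 6 primitive endoderm markers, and 13.5 to 18.05 against 10.2 to 14.8 CPM for 4 trophoblast markers. In bulk RNA, a change in the number of cells of a type and a change in RNA per cell cannot be told apart, and the part of these shifts in the *Klf* results was not tested.

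Most of the 9 members had high nascent levels and, for those levels, little total RNA. In WT, 8 of the 9 lay above the 93rd percentile of tested genes in 4sU CPM, from 93.7 for *Klf13* to 99.6 for *Klf4*, with *Klf16* at 74.4. These CPM are not corrected for transcript length. On the log2 scale, total over 4sU averaged -2.93 ± 0.09 (SD, n = 3) for *Klf5*, -2.05 ± 0.07 for *Klf4*, -1.94 ± 0.09 for *Klf2*, -1.85 ± 0.10 for *Klf6* and -1.83 ± 0.10 for *Klf3*. It was -1.47 ± 0.11 for *Klf10*, -1.14 ± 0.09 for *Klf13*, -0.81 ± 0.02 for *Klf9* and 0.04 ± 0.11 for *Klf16*. The median of all tested genes was 0.08 in WT. *Klf5* was thus at the 5.40 percentile of all tested genes and *Klf16* at the 49.1 percentile, with the other members between 13.5 and 29.4.

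**Figure D1:**
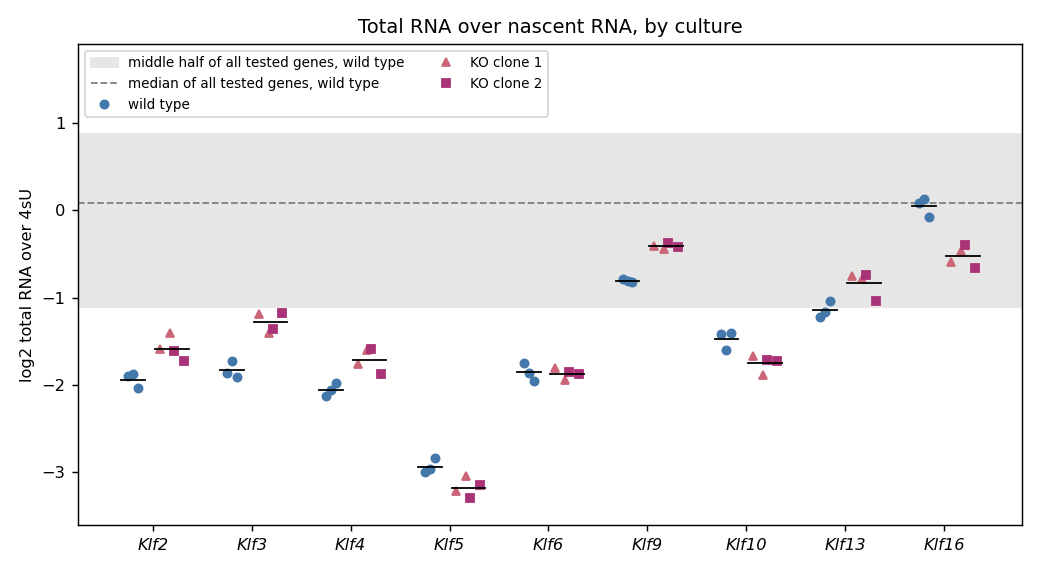
Log2 of total RNA over 4sU (y axis) for the 9 *Klf* genes (x axis) in each culture, with group means as black lines and the interquartile range of all tested genes in WT as a grey band. *Klf2*, *Klf3*, *Klf4* and *Klf9* are higher in all 4 KO cultures than in any WT culture, *Klf5*, *Klf10* and *Klf16* are lower, and *Klf6* overlaps.

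Per kilobase of the deposited gene length, *Klf2* had the highest total RNA level in WT, at 98.5 ± 2.0 CPM per kb (SD, n = 3). It was followed by *Klf4* at 89.5, *Klf9* at 69.4, *Klf10* at 49.4, *Klf5* at 41.6, *Klf16* at 22.2, *Klf6* at 20.4, *Klf3* at 16.3 and *Klf13* at 12.4 CPM per kb. The WT cultures of neighbours in this order overlapped for *Klf10* and *Klf5* and for no other pair. In KO total RNA, *Klf6* stood above *Klf16*, at 35.8 ± 1.1 against 20.3 ± 1.0 CPM per kb (n = 4), and the remaining order was the same except that *Klf3* (20.7 CPM per kb) passed *Klf16* with overlapping cultures. In WT 4sU, *Klf2* (379 CPM per kb), *Klf4* (371) and *Klf5* (317) had the highest levels, with *Klf2* and *Klf4* overlapping. The counted length of *Klf5* is 1721 bases, shorter than its annotated coding sequence of 1341 bases and 3′ UTR of 1707 bases together. That of *Klf9*, 3263 bases, is also shorter than its coding sequence of 735 bases and 3′ UTR of 3222 bases together. The places of both in these orders depend on the gene model.

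Total RNA rose for most of the members in *Ddx6* KO cells, with nascent RNA higher in some of them and similar or lower in others. *Klf6* was left out of the counts of calls because it was singled out with its values known. The 8 other members were also chosen with earlier results of these data known, so their counts describe these genes only. With an adjusted p under 0.05, total RNA rose for 5 of the 8 other members and fell for 0, where 19.5% of all tested genes rose and 31% fell. Nascent RNA rose for 4 and fell for 2, against 20.5% and 21% of all genes. Total over 4sU rose for 5 and fell for 1, against 3.77% and 8.51%. With the further condition of a log2 fold change above 1 or below -1, 0 of these 8 were called in nascent RNA, total RNA or stability, where 10.9%, 10.1% and 1.08% of all genes were, although 6, 5 and 7 of them had an unadjusted p under 0.05. DESeq2 and limma-voom also called 0 members under that condition.

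With *Klf6* included, KO and WT cultures did not overlap for 5 members in nascent RNA, 6 in total RNA and 7 in total over 4sU, where 41.7%, 52.4% and 22.9% of all tested genes did not overlap. Again with *Klf6*, the median log2 change of the members was 0.26 in nascent RNA, 0.26 in total RNA and 0.30 in stability. Over all tested genes it was 0.00, -0.10 and -0.09. The members were chosen with these changes known, so their medians describe these genes only and are no evidence about the family. Scaling by library size alone moved the medians of all genes to 0.21, 0.06 and -0.14, and those of the members to 0.47, 0.42 and 0.25. The number of members above the median of all genes was 6, 8 and 6 under either scaling.

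**Figure D2:**
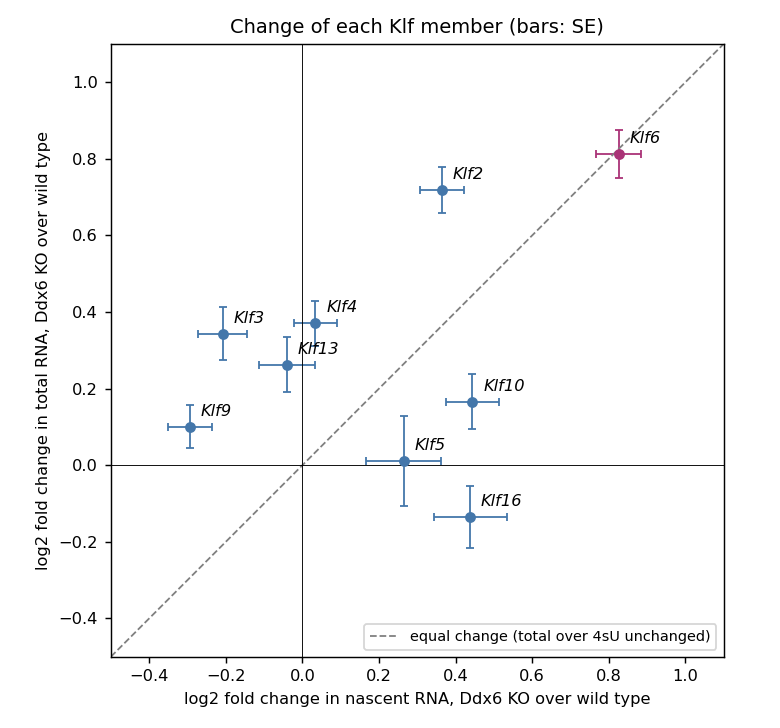
Log2 fold change of each *Klf* gene in total RNA (y axis) against nascent RNA (x axis), *Ddx6* KO over WT, with SE as bars and a dashed line where both are equal. *Klf6* lies on the line at 0.83 and 0.81, *Klf2*, *Klf3*, *Klf4*, *Klf9* and *Klf13* lie above it, and *Klf5*, *Klf10* and *Klf16* lie below it.

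Among the members known for pluripotency, *Klf2* rose at both levels. *Klf2* (ENSMUSG00000055148.7) is encoded on chromosome 8 (plus strand, 72319033 to 72321656, build GRCm38 as for the genes below). Its nascent RNA was 667, 669 and 761 CPM in WT, 877 and 836 CPM in KO clone 1, and 881 and 1006 CPM in KO clone 2. Its total RNA was 178, 182 and 185 CPM in WT against 290.5, 315, 288 and 304 CPM in KO. Every KO culture was above every WT culture in both. The log2 fold change was 0.36 (SE 0.06, adjusted p = 4.93e-07) in nascent RNA and 0.72 (SE 0.06, adjusted p = 1.99e-15) in total RNA. Stability thus rose by 0.35 (SE 0.08, adjusted p = 0.0022). With clone 2 alone, the stability change was 0.28 (adjusted p = 0.0783).

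*Klf4*, a reprogramming factor, rose in total RNA without a detectable change in nascent RNA. It lies on the minus strand of chromosome 4 from 55527143 to 55532466 (ENSMUSG00000003032.8). Nascent *Klf4* was 1114, 1132 and 1127 CPM in WT and 1209, 1114, 1011 and 1270 CPM in KO, so the KO cultures lay on both sides of WT. Total *Klf4* was 255, 272 and 286 CPM in WT and 356, 366, 335 and 345 CPM in KO, with no overlap. Total over 4sU was -2.12, -2.05 and -1.98 in WT and -1.76, -1.60, -1.59 and -1.88 in KO on the log2 scale, again with no overlap. Total RNA rose by 0.37 (SE 0.06, adjusted p = 4.01e-07) and stability by 0.34 (SE 0.08, adjusted p = 0.00331), beside a nascent difference of 0.03 (SE 0.06, adjusted p = 0.667). With library-size scaling, the nascent change of *Klf4* became 0.24 (adjusted p = 0.000343).

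*Klf5* had no detectable change in total RNA, unlike *Klf2* and *Klf4*. It lies on the plus strand of chromosome 14 from 99298691 to 99315036 (ENSMUSG00000005148.7), and had the lowest total over 4sU of the 9. Nascent *Klf5* was 484, 537 and 617 CPM in WT and 602, 641, 722 and 663 CPM in KO, and rose by 0.26 (SE 0.10, adjusted p = 0.0393). One KO culture lay inside the WT range. The call was lost without WT culture 1 (0.18, adjusted p = 0.0594) or 2 (0.25, adjusted p = 0.138), without clone 1 culture 2 (0.28, adjusted p = 0.0516), and without clone 2 culture 1 (0.23, adjusted p = 0.0771) or 2 (0.27, adjusted p = 0.105). It was also lost with DESeq2 size factors (0.23, adjusted p = 0.0671), the single-end run alone (0.24, adjusted p = 0.122) and clone 1 alone (0.19, adjusted p = 0.283). Total *Klf5* was 60.1, 68.4 and 86.0 CPM in WT and 64.5, 77.5, 73.0 and 74.3 CPM in KO, all inside the WT range, with a log2 difference of 0.01 (SE 0.12, adjusted p = 0.948). Total over 4sU was lower in every KO culture, by -0.25 (SE 0.15, adjusted p = 0.337), and with the culture as a block in the fit the adjusted p was 0.040.

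**Figure D3:**
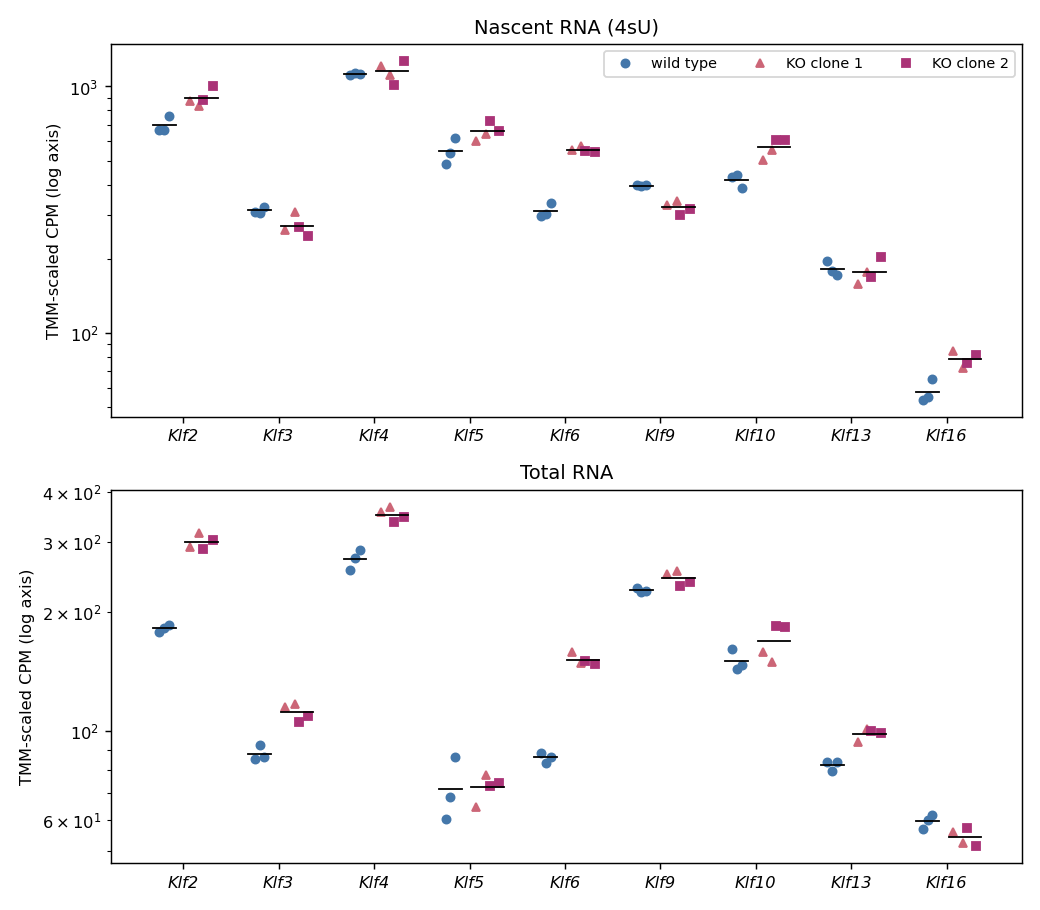
TMM-scaled CPM on a log axis (y axis) of the 9 *Klf* genes (x axis) in nascent RNA (top) and total RNA (bottom), with 1 point per culture and group means as black lines. The largest gap between groups is that of *Klf6* in both panels, while *Klf4* and *Klf13* separate in total RNA and overlap in nascent RNA.

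*Klf6*, an activator expressed in many tissues, had the largest nascent and total changes of the 9, and both were of the same size. It lies on the plus strand of chromosome 13 from 5861482 to 5870394 (ENSMUSG00000000078.7). Nascent *Klf6* was 298, 304 and 336 CPM in WT, 555 and 575 CPM in KO clone 1, and 545 and 545 CPM in KO clone 2. Total *Klf6* was 88.5, 83.2 and 86.5 CPM in WT and 158, 149, 151 and 148 CPM in KO. Every KO culture was above every WT culture by a wide margin in both, with the clones close to each other. The log2 fold change was 0.83 (SE 0.06) in nascent RNA and 0.81 (SE 0.06) in total RNA, or 1.77-fold and 1.76-fold. Total over 4sU was -1.75, -1.86 and -1.95 in WT and -1.81, -1.95, -1.85 and -1.88 in KO, so that each KO culture lay within the WT range. The difference in stability was -0.01 (SE 0.09), and its values under the other settings tried ran from -0.09 to 0.08.

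Set against the pluripotency members, *Klf6* gained in nascent RNA and less so in total RNA. The log2 level of *Klf6* minus the mean of *Klf2*, *Klf4* and *Klf5* in nascent RNA was -1.25, -1.28 and -1.27 in the WT cultures and -0.63, -0.55, -0.66 and -0.80 in KO. In total RNA it was -0.66, -0.85 and -0.93 in WT and -0.25, -0.48, -0.35 and -0.42 in KO. The groups did not overlap in either measure, and the means moved by 0.61 and 0.44. For total over 4sU, the WT values were 0.60, 0.43 and 0.33 and the KO values 0.38, 0.07, 0.31 and 0.37, which overlapped. These mean differences depend on the reference gene, since in total RNA *Klf6* gained 0.09 over *Klf2*, 0.44 over *Klf4* and 0.78 over *Klf5*. In nascent RNA it gained 0.46 over *Klf2*, 0.80 over *Klf4* and 0.56 over *Klf5*. In total over 4sU, the differences were -0.37 against *Klf2*, -0.36 against *Klf4* and 0.22 against *Klf5*. No test was made of this comparison, which was chosen for its values.

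**Figure D4:**
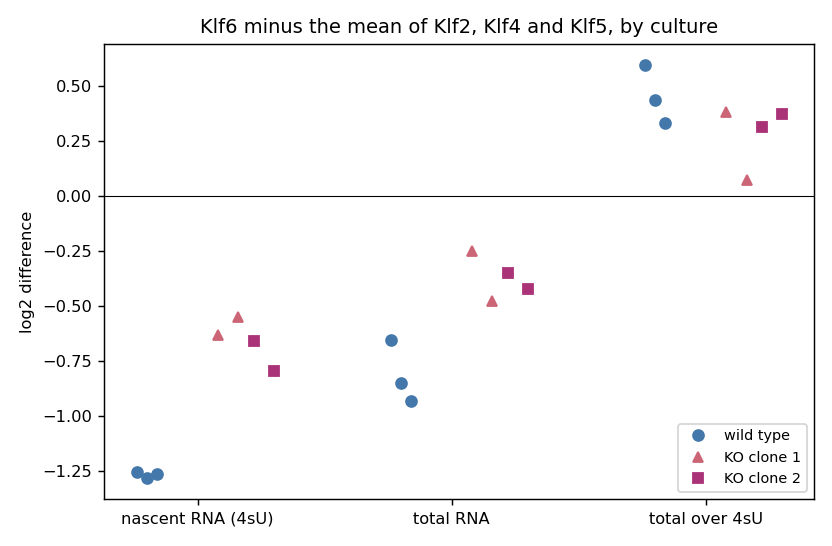
Log2 level of *Klf6* minus the mean log2 level of *Klf2*, *Klf4* and *Klf5* (y axis), in nascent RNA, total RNA and total over 4sU (x axis), with 1 point per culture. The KO cultures lie above the WT cultures in nascent RNA (means -0.66 and -1.27) and in total RNA (-0.38 and -0.81) and overlap them in total over 4sU.

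*Klf3* encodes a repressor that recruits CtBP. It lies on the plus strand of chromosome 5 from 64803388 to 64832901 (ENSMUSG00000029178.14). Its nascent RNA was 311, 307 and 326 CPM in WT and 262, 311, 270 and 249 CPM in KO, while its total RNA was 85.1, 92.5 and 86.3 CPM in WT and 115, 117, 105 and 110 CPM in KO. Total RNA was thus higher in every KO culture although 3 of the 4 had less nascent RNA than any WT culture. Nascent RNA fell by 0.21 (SE 0.06, adjusted p = 0.00743), total RNA rose by 0.34 (SE 0.07, adjusted p = 2.8e-05), and stability rose by 0.55 (SE 0.09, adjusted p = 2.64e-05), the largest rise in stability among the members. The nascent change was -0.15 (adjusted p = 0.0589) without clone 2 culture 2, -0.15 (adjusted p = 0.0897) with no filter beyond 1 count, -0.13 (adjusted p = 0.159) with clone 1 alone, and -0.0026 (adjusted p = 0.978) with library-size scaling.

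*Klf9*, *Klf10*, *Klf13* and *Klf16* belong to the group of KLFs that bind SIN3A. *Klf9*, which responds to glucocorticoid and thyroid hormones, lies on the plus strand of chromosome 19 from 23141226 to 23168134 (ENSMUSG00000033863.1). Its nascent RNA was 397, 394 and 397 CPM in WT and 331, 343, 300 and 319 CPM in KO, and its total RNA was 230, 224 and 225 CPM in WT and 248, 253, 232 and 238 CPM in KO. The groups did not overlap in either, and they moved in opposite directions. Nascent RNA fell by 0.29 (SE 0.06, adjusted p = 3.3e-05), and by 0.09 (adjusted p = 0.213) with library-size scaling. Stability rose by 0.39 (SE 0.08, adjusted p = 0.000437). The change in total RNA was 0.10 (SE 0.06, adjusted p = 0.131), and it passed under 5 settings, with values of 0.12 to 0.26.

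*Klf13* lies on the minus strand of chromosome 7 from 63886351 to 63938915 (ENSMUSG00000052040.10). Its nascent RNA, 196, 179 and 173 CPM in WT and 159, 177, 169 and 204 CPM in KO, did not separate the groups. Total RNA, 83.8, 79.4 and 83.9 CPM in WT and 94.0, 102, 100.5 and 98.9 CPM in KO, did. Total RNA rose by 0.26 (SE 0.07, adjusted p = 0.0015), nascent RNA differed by -0.04 (SE 0.07, adjusted p = 0.696, and 0.17 with library-size scaling), and stability rose by 0.30 (SE 0.10, adjusted p = 0.0376). That last call was lost without WT culture 1 (0.27, adjusted p = 0.15) or 2 (0.29, adjusted p = 0.137), without clone 1 culture 1 (0.28, adjusted p = 0.0796) or 2 (0.29, adjusted p = 0.0838), and without clone 2 culture 1 (0.28, adjusted p = 0.107). It was also lost with limma-voom (adjusted p = 0.0527), library-size scaling (0.25, adjusted p = 0.077), the re-sequencing run alone (0.25, adjusted p = 0.194) and clone 2 alone (0.25, adjusted p = 0.22).

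*Klf10*, a gene induced by TGF-β, and *Klf16* gained nascent RNA. In total RNA, the estimated rise of *Klf10* was smaller, and *Klf16* had no detectable change. *Klf10* lies on the minus strand of chromosome 15 from 38291463 to 38300706 (ENSMUSG00000037465.9). Nascent *Klf10* was 428, 436 and 389 CPM in WT and 502, 555, 606 and 609 CPM in KO, a rise of 0.44 (SE 0.07, adjusted p = 1.27e-06). Total *Klf10* was 161, 144 and 147 CPM in WT, 158 and 149 CPM in KO clone 1, and 184 and 183 CPM in KO clone 2, so that clone 1 lay inside the WT range and clone 2 above it. The change of 0.17 (SE 0.07, adjusted p = 0.0499) was lost without WT culture 2 (0.13, adjusted p = 0.209) or 3 (0.15, adjusted p = 0.157) and without clone 2 culture 1 (0.14, adjusted p = 0.124) or 2 (0.14, adjusted p = 0.0923). It was also lost with DESeq2 (0.19, adjusted p = 0.0552), limma-voom (0.16, adjusted p = 0.0692) and clone 1 alone (0.05, adjusted p = 0.599). Stability differed by -0.28 (SE 0.10, adjusted p = 0.0593), and the adjusted p was 0.00916 with the culture as a block, 0.0196 with library-size scaling and 0.0425 without clone 1 culture 1.

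*Klf16* had the highest total over 4sU in WT, and among the 9 its fall in stability was the one that passed the test. It lies on the minus strand of chromosome 10 from 80567124 to 80577321 (ENSMUSG00000035397.8). Nascent *Klf16* was 53.7, 54.9 and 65.1 CPM in WT and 84.4, 72.4, 75.7 and 81.8 CPM in KO. Total *Klf16* was 56.8, 60.1 and 61.6 CPM in WT and 55.7, 52.4, 57.3 and 51.5 CPM in KO. Nascent RNA separated the groups and total RNA did not. Nascent RNA rose by 0.44 (SE 0.10, adjusted p = 0.000144), total RNA differed by -0.13 (SE 0.08, adjusted p = 0.157, and 0.02 with library-size scaling), and stability fell by 0.57 (SE 0.12, adjusted p = 0.000919).

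No difference between the KO clones passed the test. In a fit with separate means for each clone, 0 of the 9 members differed between clones at an adjusted p under 0.05 in nascent RNA, total RNA or stability, where 0.165%, 0.296% and 0.00689% of all tested genes did. At an unadjusted p under 0.05, edgeR gave 1, 1 and 0 members. The largest difference was that of *Klf10* in total RNA, 0.26 higher in clone 2 (adjusted p = 0.203).

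The 3′ UTRs of the members were examined for seed matches of the ESCC miRNAs, the abundant family of ESC miRNAs, since DDX6 acts in miRNA silencing. The sequences are from RefSeq (GRCm38.p6), with the seed (bases 2 to 8) in capitals. Of 7 ESCC miRNAs listed there, 5 have the same seed, and 4 of these are shown because the sites below pair with it.
mmu-miR-294-3p: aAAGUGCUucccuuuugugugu
mmu-miR-295-3p: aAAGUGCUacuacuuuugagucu
mmu-miR-291a-3p: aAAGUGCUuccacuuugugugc
mmu-miR-302b-3p: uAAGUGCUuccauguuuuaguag

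In the annotated principal transcripts, a 7mer or 8mer match was found for *Klf13* (2), *Klf3* (1) and *Klf6* (1). These sites are printed to show the longest matches found among the members. Capitals mark the bases that pair with the seed and, in the 8mer, the A after them, and positions count from the first base of the 3′ UTR.
*Klf13* 8mer at position 2427: tttccaaagagAGCACTTAatttaattt
*Klf13* 7mer at position 536: cagaccatgggAGCACTTgcctatggaa
*Klf3* 7mer at position 3313: ttacaaatactAGCACTTttttttcctg
*Klf6* 7mer at position 2654: ttcaaaatcctAGCACTTgatttgctgg

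The paper reports little change in mRNA stability for ESCC targets in *Ddx6* KO cells, with higher translation levels. Whether the members belong to its target set was not examined. Stability rose for *Klf13* (0.30, a call lost under 9 of 19 alternatives) and *Klf3* (0.55), which carry such matches. It differed by -0.01 for *Klf6*, which also carries one. *Klf2*, *Klf4*, *Klf5* and *Klf16* hold no match of 6 bases or more, and their stability changes were 0.35, 0.34, -0.25 and -0.57. *Klf9* and *Klf10* hold 1 match of 6 bases each. Among 11954 tested protein-coding genes with an annotated 3′ UTR, 31.6% held a match of 6 bases, 19.7% a 7mer or 8mer, and 3.38% an 8mer. The 3 carriers of a 7mer or 8mer had 3′ UTRs of 5157 (*Klf13*), 3743 (*Klf3*) and 3111 (*Klf6*) bases, against a median of 1797 bases for the members and 1036.5 for all genes. The AU-rich element TATTTAT occurred 2 times in *Klf6* and 1 time each in *Klf2*, *Klf5*, *Klf10* and *Klf16*, while 28.8% of genes held at least 1. Per kilobase of 3′ UTR, summed over genes, it occurred 0.27 times in the members and 0.29 times in all these genes. For *Klf5*, the longest annotated 3′ UTR, of 1841 bases, holds none.

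Promoters were examined because nascent RNA changed in opposite directions among the members. The RefSeq table of GRCm38.p6 holds 6 of the 9 (*Klf2*, *Klf3*, *Klf4*, *Klf6*, *Klf9* and *Klf13*). The 250 bases before the annotated start are shown for *Klf6* and *Klf9*, whose nascent RNA had the largest difference up and down. Capitals mark matches on either strand to the GC box GGGCGG, to the box named after its letters CACCC, and to the STAT motif TTCNNNGAA, and overlapping matches are joined.
*Klf6*, plus strand, chr13:5861239-5861488: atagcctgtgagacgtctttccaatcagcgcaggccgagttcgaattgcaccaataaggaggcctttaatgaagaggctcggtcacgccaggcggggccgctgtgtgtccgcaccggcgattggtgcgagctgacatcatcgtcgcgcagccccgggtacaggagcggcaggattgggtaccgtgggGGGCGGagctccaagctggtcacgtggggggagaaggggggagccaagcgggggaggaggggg
*Klf9*, plus strand, chr19:23140976-23141225: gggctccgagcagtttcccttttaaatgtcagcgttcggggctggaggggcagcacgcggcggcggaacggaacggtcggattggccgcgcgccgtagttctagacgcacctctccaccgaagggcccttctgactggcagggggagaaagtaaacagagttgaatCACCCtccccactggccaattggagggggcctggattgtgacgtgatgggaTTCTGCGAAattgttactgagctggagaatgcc

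GGGCGG occurred in 5 of the 6 promoters, 6 times in *Klf3*, 4 times in *Klf4*, 3 times in *Klf13*, 2 times in *Klf2* and 1 time in *Klf6*. Of 32851 promoters of the same length, 32.7% held it. These promoters, the background for all motifs here, were not limited to the tested genes. CACCC occurred 5 times in *Klf3* and 1 time each in *Klf2*, *Klf9* and *Klf13*, and 52.0% of promoters held it. TTCNNNGAA was found in *Klf9*, and 7.02% of promoters held it. The GC content of the 6 was 59.6% to 78.4%, against a median of 52.4%. Such matches describe the letters in these windows and do not show that a factor binds there.

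The other *Klf* genes varied in direction. *Klf1*, *Klf7*, *Klf8*, *Klf11*, *Klf12* and *Klf15* were tested, and in total RNA 4 rose, 1 fell and 1 was not called, with a median change of 0.40. Over all tested genes, the background also for the Sp genes below, 19.5% rose and 31% fell. *Klf12*, a CtBP-binding repressor, rose by 1.28 (SE 0.38, adjusted p = 0.00405) from a mean of 1.34 CPM in WT. *Klf7*, the closest relative of *Klf6*, rose by 0.78 (SE 0.10) from 19.04 CPM, with a nascent change of 0.36. *Klf8*, another CtBP-binding repressor, rose by 0.56 (SE 0.09) from 89.5 CPM, with a nascent change of 0.73. *Klf15*, a metabolic regulator, fell by 0.85 (SE 0.13) from 28.0 CPM. *Klf14* and *Klf17* did not pass the filter and *Klf18* has no row under that symbol. Of the related Sp genes, 7 of 9 were tested, and in total RNA 1 rose (*Sp5*, 1.58, SE 0.36, from 1.19 CPM), 2 fell (*Sp1*, -0.30, and *Sp2*, -0.29) and 4 were not called. *Sp3*, the Sp gene with the highest level per kilobase in WT total RNA, differed by 0.07 (adjusted p = 0.374).

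The genes of the LIF and STAT3 pathway, which here include genes induced by STAT3, moved in both directions. Of 11 genes tested, total RNA rose for 4 and fell for 2, nascent RNA rose for 5 and fell for 5, and stability rose for 2 and fell for 3. Of all tested genes, 19.5% rose and 31% fell in total RNA, 20.5% and 21% in nascent RNA, and 3.77% and 8.51% in stability. *Socs3*, the feedback inhibitor induced by STAT3, rose by 0.75 in total RNA (SE 0.07, adjusted p = 8.91e-14), and *Stat3* itself by 0.59 (SE 0.07, adjusted p = 3.87e-11). *Pim1*, a kinase induced by STAT3, fell by 0.59 (SE 0.07, adjusted p = 4.47e-11), and *Il6st*, which encodes the shared receptor gp130, by 0.36 (SE 0.07, adjusted p = 9.38e-06).

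A further list held corepressors, coactivators and ubiquitin ligases that act on KLFs. Of 12 tested, total RNA rose for 2 and fell for 3, nascent RNA rose for 5 and fell for 0, and stability rose for 0 and fell for 4. The shares of all tested genes up and down were 19.5% and 31% in total RNA, 20.5% and 21% in nascent RNA, and 3.77% and 8.51% in stability. *Fbxw7*, a ligase subunit that targets KLF5, rose by 0.33 in total RNA (SE 0.07, adjusted p = 4.86e-05) and *Kat2b*, an acetyltransferase, by 0.21 (SE 0.06). *Sap30*, a subunit of the SIN3 complex, fell by 0.28 (SE 0.07, adjusted p = 0.00139) and *Sin3b* by 0.22 (SE 0.06). *Sin3a* had a nascent rise of 0.30 and differed by 0.04 in total RNA (adjusted p = 0.582).

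The tested genes nearest in pattern to *Klf6*, *Klf2*, *Klf4* and *Klf5* were picked by their correlation. Over the 14 libraries, with log2 CPM centred within 4sU and within total RNA, the genes with the highest Pearson correlation to *Klf6* were *Mtpn* (0.997), *Tet2* (0.996) and *Fjx1* (0.996). Those nearest to *Klf2* were *Irf2bpl* (0.98), *Mdfic* (0.98) and *Brpf1* (0.97). For *Klf4* they were *Mdfi* (0.89), *Elmo3* (0.89) and *Apob* (0.89), and for *Klf5* they were *Ints8* (0.90), *Gm37702* (0.88) and *Ercc3* (0.88). The difference between WT and KO was left in these values. They are the highest among all tested genes and describe likeness of pattern only.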

How the data were processed

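Nascent (4sU) and total RNA of 7 cultures of mouse ESCs were examined, as 14 libraries. The authors trimmed reads with cutadapt 1.14, aligned them with STAR 2.5.3a to mm10 and counted unique alignments per gene, by strand, with featureCounts 1.5.3 on Gencode exons, and deposited raw counts without normalization, with a gene length in bases beside them. Each 4sU library has counts from a single-end and from a paired-end run, which were summed here. Of 51559 rows, 92 are spike-ins with 0 counts and were left out.

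A gene was tested if 3 or more libraries held 3 CPM or more of it (14518 genes). Counts were scaled with TMM over the 14 libraries and fitted in R 4.3.3 with edgeR 4.0.16 (robust quasi-likelihood) as 4 group means. KO minus WT was taken within 4sU (nascent), within total RNA (mRNA), and as the interaction (stability). Adjusted p values are Benjamini-Hochberg values over all tested genes. A call needs an adjusted p under 0.05, with a log2 fold change beyond 1 as a second rule. Log2 ratios per culture used a pseudocount of 0.5 CPM.

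The members and gene lists were chosen with earlier results of these data known. Named genes are the 9 members, *Ddx6*, from each of the lists of other *Klf*, Sp, LIF and STAT3, and cofactor genes up to 4 with the largest total RNA change past an adjusted p of 0.05 and the gene with the highest level per kilobase, and the 3 genes closest in pattern to *Klf2*, *Klf4*, *Klf5* and *Klf6*. *Sin3a* and the cell type markers given by name were named after their values were seen. The 4sU and total library of a culture are paired because, by the paper's methods, the RNA of a labelled sample was split. The correlation of their deviations from the group means averaged 0.07, from 0.00 to 0.12 over 7 pairs. The main fit held no term for the culture, which was a block in an alternative fit only. Alternatives were DESeq2 1.42.0, limma-voom (limma 3.58.1), other scalings and filters, each sequencing run, a block for the culture or for the replicate number, single clones, and leaving out each culture. Sequences and gene models came from RefSeq and Gencode tables of GRCm38, and protein sequences were not used here. A floor of 3 counts, which covers counting error only, corresponds to 1.23 CPM in the smallest 4sU library and 0.524 CPM in the smallest total RNA library.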

Additional observations from a re-analysis of the deposited data

Results flagged for a closer look

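The log2 ratio of total RNA to 4sU of *Klf13* in the 4 KO cultures had 1 culture far from the others. The values were -0.75 and -0.79 in clone 1 and -0.75 and -1.04 in clone 2, and the gap of the lowest culture to the nearest one was 0.842 of the range of the group. The nascent level of *Klf13* in that culture was 204 CPM, against 159 to 177 CPM in the other KO cultures, and its total level was 98.9 CPM, against 94.0 to 102 CPM. Without that culture the stability call was kept. Of 27 such groups examined this was the only one, and chance alone would give about 1.35.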

How the results depend on the processing

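Of 495 values of single members under the alternatives, 435 kept their direction and their side of the adjusted p, 31 lost the call, 10 gained it and 19 changed sign, none of these 19 from a value that was called. The cause of these changes was not tested. Some of the fits held fewer cultures. Counts of members here include *Klf6*, whose values are a description and no test. With library-size scaling, the nascent change of *Klf6* was 1.03, so that the number of members beyond both limits was 1 in place of 0, the nascent change of *Klf13* was 0.17 and the total RNA change of *Klf16* was 0.022. The nascent change of *Klf13* was also 0.017 with no filter beyond 1 count, 0.011 with the re-sequencing run alone and 0.045 with clone 2 alone. The stability change of *Klf6* was 0.046 with DESeq2, 0.078 with TMM within each assay, 0.045 with DESeq2 size factors in edgeR, 0.034 with no filter beyond 1 count, 0.038 with the single-end run alone and 0.00011 with clone 2 alone. With each culture left out in turn, the nascent change of *Klf4* ran from -0.0047 to 0.10, that of *Klf13* from -0.11 to 0.012, the total RNA change of *Klf5* from -0.10 to 0.17, and the stability change of *Klf6* from -0.063 to 0.042. The difference of *Klf6* from the other members changed with the reference gene: in nascent RNA it was 0.46 with *Klf2* and 0.80 with *Klf4*, in total RNA 0.093 with *Klf2* and 0.78 with *Klf5*, and in total over 4sU -0.37 with *Klf2*, -0.36 with *Klf4* and 0.22 with *Klf5*.

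With the culture as a block, 8 members passed in stability in place of 6, through *Klf5* and *Klf10*, and no other member's stability call changed. Replicate numbers do not pair WT with KO (mean correlation 0.02 over 8 pairs), and with that number as a block 7, 5 and 6 members passed in nascent RNA, total RNA and stability, the total RNA call of *Klf10* being lost (0.13, adjusted p = 0.17). The lowest member count in a library was 122, for *Klf16*.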
